A study of Mus musculus with 6 samples.

Results

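The genes described here are 7 genes of the MHC class II pathway, chosen by name from the 18211 genes in the expression table. They are H2-Aa, H2-Ab1 and H2-Eb1, which encode chains of the class II molecules, Cd74, H2-DMa, H2-DMb1 and the regulator Ciita. Their mRNA was measured by RNA sequencing in oligodendrocyte precursor cells (OPCs) isolated at postnatal day 7 from the cerebral hemispheres of C57BL/6 mice by immunopanning on an antibody to PDGFRα. The study compared 3 wildtype libraries with 3 DISC1-Δ3 libraries. DISC1-Δ3 mice carry NG2-CreERTM and 1 floxed allele of Disc1, from which exon 3 is removed after tamoxifen, while wildtype mice carry no CreERT. Both groups received tamoxifen by gavage on each of 4 days, from day 4 to day 7, and the cells were not cultured. The NG2 (Cspg4) promoter, active in OPCs and in pericytes, drives the recombinase, so that deletion was directed to those cells. How many animals made up a library, and their sex, is not given in the sources used here, and the p-values below therefore measure only the spread between these samples, which may be technical.

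MHC class II molecules are dimers of an α and a β chain that carry peptides from endocytosed proteins to the cell surface, where CD4+ T cells recognise them. The chains assemble in the endoplasmic reticulum around the invariant chain, Cd74, which blocks the peptide groove until endosomal proteases degrade it, after which the DM dimer exchanges the remaining fragment for peptide. Transcription of these genes depends on CIITA, a coactivator that binds no DNA itself and acts through the factors assembled on the X and Y boxes of class II promoters. In the brain, class II is known mainly from macrophages at its borders, dendritic cells and activated microglia, and it has also been described in oligodendrocyte lineage cells exposed to interferon γ.

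The libraries held 13716619 to 16417219 reads assigned to genes, so that 1 read was worth 0.0609 to 0.0729 CPM (counts per 1000000 reads). Disc1, the targeted gene, was at 3.51, 3.34 and 3.81 RPKM (CPM per kilobase of transcript) in the wildtype libraries and 2.86, 2.44 and 2.85 RPKM in the DISC1-Δ3 libraries, and fell by 0.45 on the log2 scale (edgeR quasi-likelihood test, adjusted p = 0.000528, standard error 0.088). These values cover the whole gene and do not isolate exon 3. DISC1-Δ3 replicate 3 differed from its group more than any other library did. The chi-square statistic of the read counts, divided by its degrees of freedom, was 5.07 and 4.82 for its comparisons with the other 2 DISC1-Δ3 libraries and lay between 1.79 and 2.85 for all other pairs within a group. Markers of other cells were abundant: Csf1r, a receptor of microglia and macrophages, was at 1851 to 1889 RPKM in wildtype and 1276 to 1362 RPKM in DISC1-Δ3 libraries, whereas Pdgfra, the gene of the panned antigen, was at 17.16 to 18.06 and 24.96 to 26.79 RPKM. The mean Csf1r level was thus 107 times that of Pdgfra in wildtype and 51.1 times in DISC1-Δ3 libraries, which does not match the labelled cell type. Other OPC genes stood nearer to Csf1r. Olig1, the highest of 8 OPC markers in RPKM, was at 249.3 to 255.5 in wildtype and 312.0 to 339.1 in DISC1-Δ3 libraries. In these bulk samples fewer cells of a type and less RNA per cell cannot be told apart.

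Promoters of the class II genes share sequence elements, which are shown for the genes whose transcripts are described below. Of 11 class II symbols looked for, 8 had RefSeq promoter windows on the GRCm38.p6 assembly, running from 250 bases before to 50 bases after an annotated transcript start, and 4 of these were H2-Aa, H2-Eb1, H2-DMa and H2-DMb1. An X core, searched as CNNGNAAC, followed on the same strand by a Y box, searched as ATTGG, with 20 to 40 bases between their first bases, was present in 6 of the 8 genes. In these 8 genes only the gene's own strand was searched, and the letters were chosen after these promoters had been read. The stretches below run 5′ to 3′ along the gene, with the X core and the Y box in capitals and 5 bases on either side.
H2-Aa (chr17:34287862-34287912, minus strand): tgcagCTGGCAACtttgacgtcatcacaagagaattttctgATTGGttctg
H2-Eb1 (chr17:34305768-34305817, plus strand): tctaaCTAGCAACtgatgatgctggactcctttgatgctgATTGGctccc
H2-DMb1 (chr17:34153089-34153139, plus strand): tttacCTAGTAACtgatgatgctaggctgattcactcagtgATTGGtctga
H2-Oa (chr17:34092295-34092345, plus strand): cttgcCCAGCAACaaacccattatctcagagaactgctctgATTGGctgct
H2-Ob (chr17:34238810-34238857, plus strand): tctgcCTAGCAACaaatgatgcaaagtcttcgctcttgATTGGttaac
H2-Eb2 (chr17:34325535-34325584, plus strand): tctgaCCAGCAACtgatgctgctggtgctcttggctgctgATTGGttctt

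The spaced pair was found on the gene's own strand in 0.435% of all 32851 promoter windows of that length. On either strand it was found in 0.837%, the X core alone in 39.1% and the Y box alone in 37.4%. In H2-Aa, H2-Eb1 and H2-DMb1 the X core began 84, 94 and 97 bases before the transcript start and the Y box 48, 59 and 61 bases before it. In H2-Eb2 the transcript start of the window lies inside the RefSeq gene model, and so do both elements. No such pair was on the gene's own strand in the windows of H2-DMa or H2-DMb2, and the opposite strand was not searched. These windows are also placed at transcript starts inside the gene models, and the outermost starts of these genes were not searched. A match describes the letters in these windows and does not show that a factor is bound there.

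**Figure D1:**
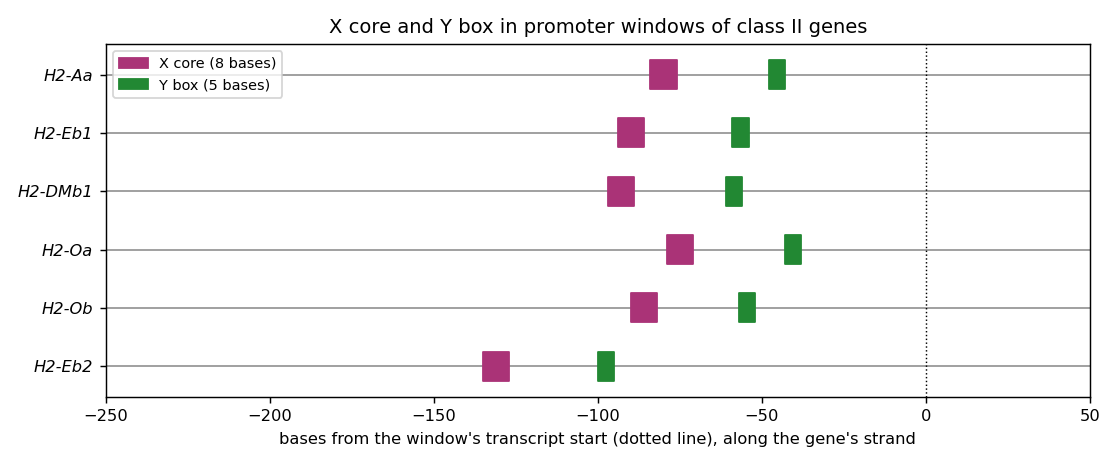
Positions of the X core (8 bases) and the Y box (5 bases) in the promoter windows of 6 class II genes, with the x axis in bases from the transcript start of the window along the gene's own strand. The X core lay 79 to 135 bases before that start and the Y box 43 to 100 bases before it.

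The chains of the class II molecules were lower in DISC1-Δ3 than in wildtype libraries, and the size of the difference varied among them. H2-Ab1 (gene ID 14961), the β chain of I-A, was at 25.89, 27.69 and 26.43 RPKM in wildtype libraries and 22.16, 22.00 and 18.41 RPKM in DISC1-Δ3 libraries. Every DISC1-Δ3 library was below every wildtype library, and replicate 3 was the lowest. H2-Ab1 fell by 0.44 on the log2 scale (standard error 0.090, adjusted p = 0.000834, edgeR quasi-likelihood test with Benjamini-Hochberg adjustment over 13792 genes), to 73.9% of wildtype. H2-Aa (gene ID 14960), the α chain that pairs with it, was at 12.63, 11.66 and 12.91 RPKM in wildtype and 7.49, 8.16 and 6.20 RPKM in DISC1-Δ3 libraries. The groups did not overlap, and H2-Aa fell by 0.85 (standard error 0.13, adjusted p = 5.55e-05, edgeR) to 55.6% of wildtype. H2-Eb1 (gene ID 14969), the β chain of I-E, was the lowest of these chains, with 2.88, 3.15 and 3.17 RPKM in wildtype and 1.38, 0.97 and 1.22 RPKM in DISC1-Δ3 libraries. These levels rested on 60, 79 and 79 reads against 30, 24 and 30 reads. H2-Eb1 fell by 1.45 (standard error 0.20, adjusted p = 1.54e-05, edgeR) to 36.6% of wildtype, with no overlap between the groups. The partner of I-E β is I-E α, and the only gene of it in the table, H2-Ea, a pseudogene in the annotation of this strain, had at most 3 reads in every library.

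Cd74 (gene ID 16149), the invariant chain, was the most abundant of the 7 genes and had the smallest fold difference, close to that of H2-Ab1. Without DISC1-Δ3 replicate 3 or without wildtype replicate 2 the difference of H2-Ab1 was the smaller one. It was at 162.66, 161.27 and 167.90 RPKM in wildtype libraries (163.9 ± 3.50, SD, n = 3) and 134.34, 133.93 and 122.25 RPKM in DISC1-Δ3 libraries (130.2 ± 6.86, n = 3). The groups were separated by a gap wider than the range within either of them. Cd74 fell by 0.41 on the log2 scale (standard error 0.051, adjusted p = 3.94e-06, edgeR), to 75.1% of wildtype.

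The DM dimer, which edits the peptides bound to class II, is encoded by H2-DMa and by the near-identical pair H2-DMb1 and H2-DMb2. H2-DMa (gene ID 14998) was at 31.50, 29.20 and 27.08 RPKM in wildtype and 18.90, 19.50 and 20.59 RPKM in DISC1-Δ3 libraries. It fell by 0.64 (standard error 0.073, adjusted p = 1.44e-06, edgeR) to 64.0% of wildtype, and DISC1-Δ3 replicate 3 was the highest of its group here, unlike for H2-Ab1, H2-Aa, Cd74 and H2-DMb1. Its RefSeq gene model shares 3122 bases with that of Brd2, and whether reads were counted by strand is not given in the sources used here. H2-DMb1 (gene ID 14999) was at 20.48, 21.10 and 23.60 RPKM in wildtype and 15.15, 16.89 and 13.21 RPKM in DISC1-Δ3 libraries, again without overlap. It fell by 0.61 (standard error 0.10, adjusted p = 0.000118, edgeR) to 65.6% of wildtype. The deposited reads of H2-DMb1 and H2-DMb2 were fractional while their sum was whole in every library, so that the split between them is an estimate. H2-DMb1 took 76.5% to 85.2% of the sum in wildtype and 77.6% to 86.4% in DISC1-Δ3 libraries, and these ranges overlapped. The sum was 416, 503 and 516 reads in wildtype and 318, 379 and 280 reads in DISC1-Δ3 libraries, and it fell by 0.63 (standard error 0.099, adjusted p = 6.13e-05, edgeR), a value that does not rest on the split.

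Ciita (gene ID 12265), the coactivator on which the other 6 genes depend in most cells, was close to the limit of detection. It had 11, 20 and 14 reads in wildtype libraries and 6, 3 and 4 reads in DISC1-Δ3 libraries, or 0.13, 0.19 and 0.14 RPKM against 0.09, 0.03 and 0.04 RPKM. The groups did not overlap, and over the summed libraries 45 reads stood against 13, a ratio of wildtype to DISC1-Δ3 per read sequenced of 3.46 (exact 95% interval 1.83 to 6.99, which covers counting error only). Ciita failed the minimum of 0.5 RPKM in 3 libraries that was required for testing. In a fit without that minimum, in which 31.7% of 18172 genes had an adjusted p below 0.05, 15.7% lower and 15.9% higher, it fell by 1.84 (standard error 0.52, adjusted p = 0.00473, edgeR). Its gene model shares 858 bases with that of Dexi.

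**Figure D2:**
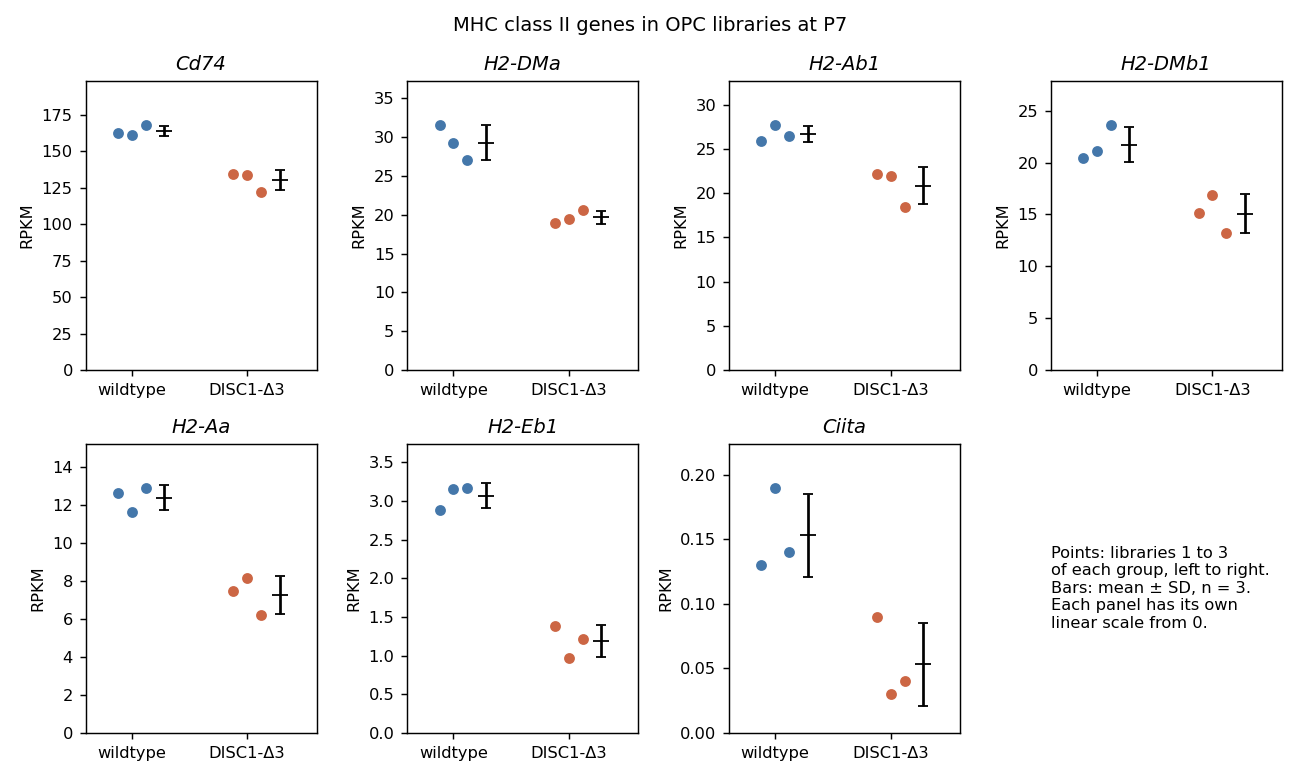
Level of each class II gene in RPKM (y axes, each on its own linear scale from 0) in the 3 wildtype and the 3 DISC1-Δ3 libraries, with points for libraries and bars for the mean ± SD (n = 3). In all 7 panels every DISC1-Δ3 library lies below every wildtype library.

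Of the 7 genes, 6 could be tested and all 6 were lower in DISC1-Δ3 libraries, against 19.5% of the 13792 genes tested that were lower, 20.4% that were higher and 39.9% that differed in either direction. The median log2 fold change of the 6 genes was -0.63, and that of all tested genes was 0.0075. The ranges of the groups were apart for all 7 genes. Among tested genes the ranges were apart for 52.0%, and 16.1% were lower in every DISC1-Δ3 library. For a single gene the exact permutation test of 3 against 3 libraries gave p = 0.1, two-sided, which is the smallest value this design allows. H2-Eb1 lay at percentile 0.399 and H2-Aa at percentile 1.93 of the log2 fold changes of all tested genes, counted from the lowest, whereas Cd74 lay at percentile 10.4. Without DISC1-Δ3 replicate 3 the adjusted p (edgeR) remained below 0.05 for all 7 genes, and the log2 fold changes were -0.73 for H2-Aa, -0.35 for H2-Ab1, -1.47 for H2-Eb1, -0.37 for Cd74, -0.68 for H2-DMa, -0.51 for H2-DMb1 and -1.75 for Ciita.

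On the RPKM scale, which accounts for transcript length, the order of the genes from high to low in wildtype libraries was Cd74, H2-DMa, H2-Ab1, H2-DMb1, H2-Aa, H2-Eb1 and Ciita. H2-DMa and H2-Ab1 overlapped between libraries and were not separated by their spread, and all other neighbours were separate. Cd74 was 5.60 times the gene next to it, and Ciita lay furthest below its neighbour. In DISC1-Δ3 libraries H2-Ab1 and H2-DMa, again overlapping, stood in the opposite order, and the rest of the order was that of wildtype.

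Because the genes differed in the size of their change, the proportions among them also differed between the genotypes. The RPKM ratio of H2-Aa to H2-Ab1 was 0.488, 0.421 and 0.488 in wildtype libraries and 0.338, 0.371 and 0.337 in DISC1-Δ3 libraries. The α chain was therefore lower relative to its β chain in every DISC1-Δ3 library (0.466 ± 0.039 against 0.349 ± 0.019, SD, n = 3, exact permutation p = 0.1, the smallest possible). The ratio of H2-Eb1 to H2-Ab1 was 0.111, 0.114 and 0.120 in the wildtype libraries, again above all DISC1-Δ3 libraries (0.0623, 0.0441 and 0.0663). By contrast, the ratio of Cd74 to H2-Ab1 overlapped between wildtype (6.28, 5.82 and 6.35) and DISC1-Δ3 libraries (6.06, 6.09 and 6.64; exact permutation p = 0.7). The ratio of H2-DMa to H2-DMb1, the subunits of DM, was 1.36 ± 0.20 in wildtype and 1.32 ± 0.21 in DISC1-Δ3 libraries (SD, n = 3, exact permutation p = 1). Cd74 supplied 60.7% to 61.9% of all reads of the 7 genes in wildtype libraries and 64.4% to 65.2% in DISC1-Δ3 libraries.

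The other genes of the pathway were taken from lists by role. Among 34 such genes in 6 lists, 30 were tested, of which 17 were lower and 1 was higher, against 19.5% and 20.4% of all tested genes. The group of other class II chains included H2-Oa and H2-Ob, which form the DO dimer that restrains DM, and all 3 of its tested members were lower, although only 2 were without wildtype replicate 1 or without wildtype replicate 2. H2-Oa was at 17.78, 15.13 and 17.45 RPKM in wildtype and 9.97, 12.92 and 9.85 RPKM in DISC1-Δ3 libraries, and fell by 0.69 (standard error 0.12, adjusted p = 0.000210, edgeR). H2-Ob fell by 0.75 (standard error 0.13, adjusted p = 0.000206, edgeR) and H2-DMb2 by 0.74 (standard error 0.23, adjusted p = 0.0152, edgeR). Of these 3, the RPKM of H2-DMb2 overlapped between the genotypes, at 7.29 to 11.22 against 3.71 to 7.75. The ratio of H2-DMa to H2-Oa was 1.75 in wildtype and 1.83 in DISC1-Δ3 libraries, with overlapping ranges (exact permutation p = 0.8). H2-Eb2 had at most 3 reads in every library and was not tested.

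All 6 tested genes of endosomal antigen processing were lower, against 19.5% of all tested genes, with a median log2 fold change of -0.37. Ctss, the cathepsin that trims the invariant chain in antigen-presenting cells, had the largest decrease of the list (log2 fold change -0.69), followed by the thiol reductase Ifi30 (-0.49) and the asparaginyl endopeptidase Lgmn (-0.41), while Ctsl was at -0.11 (adjusted p = 0.0453, edgeR). When 1 library was left out, 5 or 6 of the list were lower, with 5 without wildtype replicate 2 or 3 or DISC1-Δ3 replicate 1 or 2. Of the ubiquitin ligases that remove class II from the surface, Marchf1 was at 7.70, 8.28 and 7.17 RPKM in wildtype and 3.45, 3.73 and 4.20 RPKM in DISC1-Δ3 libraries. It fell by 1.07 (standard error 0.092, adjusted p = 4.60e-08, edgeR), more than any class II gene other than H2-Eb1 and Ciita, with no test of that difference. Marchf8 was at -0.14 (adjusted p = 0.0514, edgeR) and did not pass the test.

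Of the 7 factors tested that bind the X and Y boxes shown above, none was lower and 1 was higher, against 19.5% and 20.4% of all tested genes, and their median log2 fold change was 0.11. Rfxap, a subunit of the RFX complex on the X box, rose by 0.31 (adjusted p = 0.0160, edgeR), a call that was lost without wildtype replicate 1 or without DISC1-Δ3 replicate 2, when 0 of the 7 were higher, and without DISC1-Δ3 replicate 1 or 3 there were 2. The other RFX subunits were at -0.22 for Rfx5 (adjusted p = 0.0511) and -0.06 for Rfxank (adjusted p = 0.629), and Creb1 was at -0.22 (adjusted p = 0.0725, all by edgeR). Nfya, Nfyb and Nfyc, the subunits of the Y box factor, were at 0.11, 0.16 and 0.16 and did not pass the test.

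Interferon γ is the classic inducer of Ciita. Its own transcript, Ifng, had 3 to 6 reads in each library and was not tested. Of 7 genes tested on the path from its receptor to Ciita, 5 were lower, against 19.5% of all tested genes. Their median log2 fold change was -0.39. Irf1, a transcription factor that acts on the interferon-inducible promoter of Ciita, was at 65.53, 65.22 and 66.27 RPKM in wildtype and 35.91, 37.16 and 37.71 RPKM in DISC1-Δ3 libraries. The spread within either group was small beside the gap between them, and Irf1 fell by 0.91 (adjusted p = 7.07e-11, edgeR). The receptor chains Ifngr1 and Ifngr2 fell by 0.61 and 0.39, the kinase Jak1 by 0.20 and the transcription factor Irf8 by 0.48, while Jak2 (-0.07, adjusted p = 0.577) and the inhibitor Socs1 (0.13, adjusted p = 0.599, edgeR) did not pass the test. Among 5 tested costimulatory and inhibitory ligands of antigen-presenting cells, Cd86 fell by 0.61 and Cd274 by 0.32, and Cd80, Cd40 and Icam1 did not pass. Cd80 was at -0.13, Cd40 at 0.33 and Icam1 at 0.10 on the log2 scale. Without any of 5 single libraries, each of them other than DISC1-Δ3 replicate 3, only 1 of these 5 ligands was lower.

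**Figure D3:**
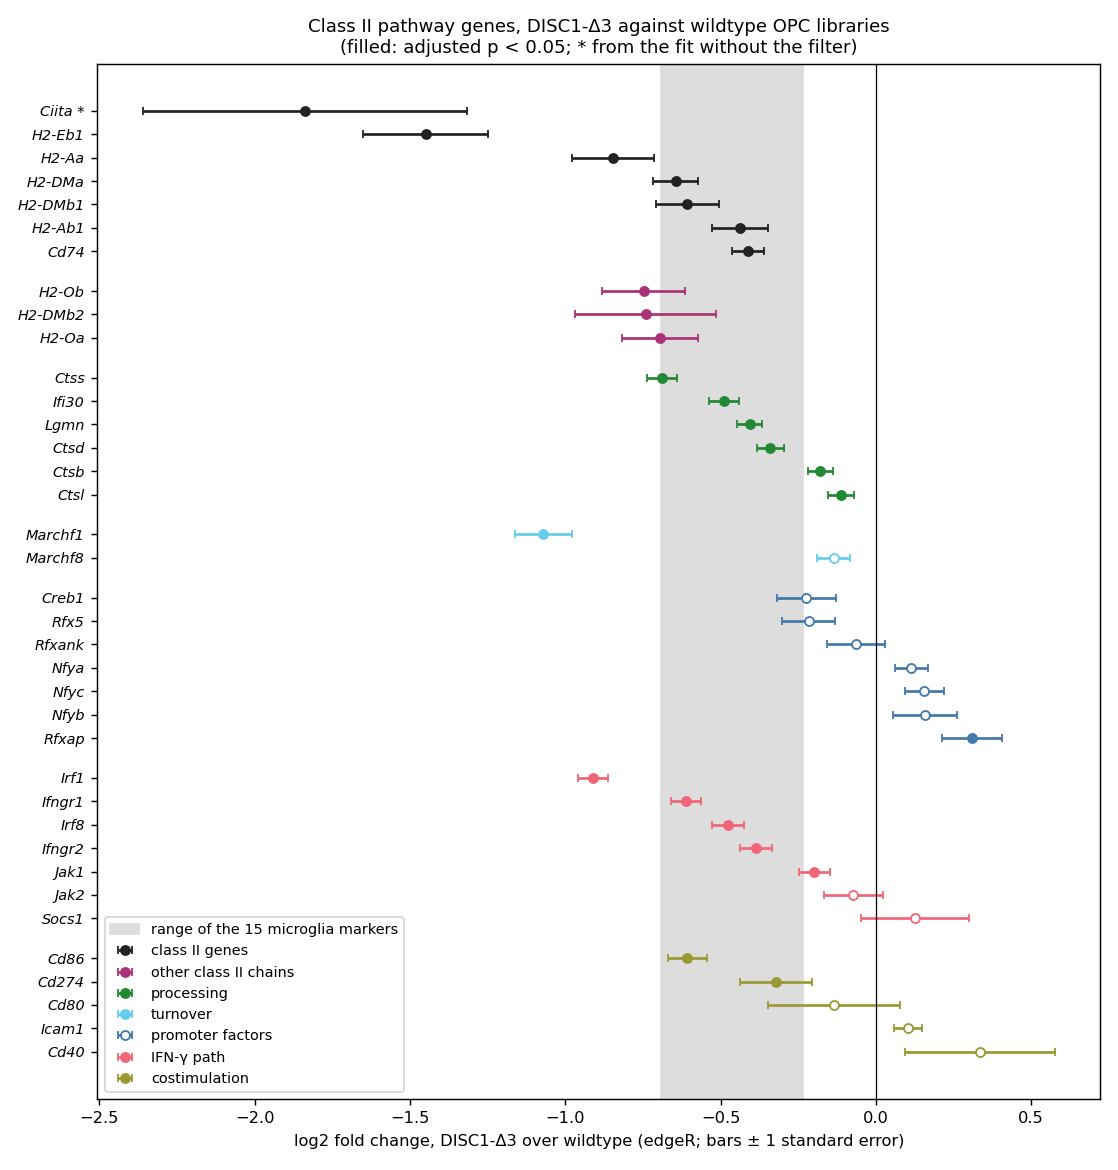
Log2 fold change of DISC1-Δ3 over wildtype (x axis, edgeR, bars ± 1 standard error) for the class II genes and 6 lists of pathway genes, with filled points at an adjusted p below 0.05 and the range of 15 microglia markers (-0.69 to -0.23) shaded. H2-Eb1, H2-Aa and, in the fit without the RPKM minimum, Ciita lie below that range. Marchf1, Irf1, H2-Ob, H2-DMb2 and, narrowly, H2-Oa of the pathway lists lie below it too. The promoter factors lie between -0.22 and 0.31.

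Markers of microglia moved with the class II genes. All 15 microglia markers, among them C1qa, Tmem119 and P2ry12, were lower in DISC1-Δ3 libraries, against 19.5% of all tested genes. Their median log2 fold change was -0.49, with a range of -0.69 to -0.23. Their summed level was 25162 to 25528 CPM in wildtype and 18109 to 18838 CPM in DISC1-Δ3 libraries, or 0.733 of wildtype, beside 293.7 to 299.0 and 208.9 to 229.7 CPM, or 0.752 of wildtype, for the 7 class II genes. The class II sum was 1.17%, 1.17% and 1.17% of the microglia marker sum in wildtype libraries and 1.21%, 1.23% and 1.15% in DISC1-Δ3 libraries. These ranges overlapped (exact permutation p = 0.4), although with RPKM in place of CPM they did not, at 1.49% to 1.51% and 1.52% to 1.62% (exact permutation p = 0.1). Cd74 supplied 60.7% to 61.9% of the class II reads in wildtype and 64.4% to 65.2% in DISC1-Δ3 libraries. The class II sum therefore mostly follows Cd74, the class II gene with the smallest fold difference. The part of microglia in the result was not tested. None of the 15 markers had a log2 fold change as low as that of H2-Aa or H2-Eb1, whereas 4 were lower than H2-DMa, 4 than H2-DMb1, 8 than H2-Ab1 and 10 than Cd74.

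Set against Csf1r in the same library, the class II genes fell into groups. H2-Eb1 was at 1.64 ± 0.10 RPKM per 1000 RPKM of Csf1r in wildtype and 0.900 ± 0.15 in DISC1-Δ3 libraries (SD, n = 3), and H2-Aa was at 6.65 ± 0.35 and 5.50 ± 0.64, both without overlap. Ciita was lower on this scale too, at 0.0823 against 0.0400, from few reads. H2-DMa (15.7 against 14.9), H2-DMb1 (11.7 against 11.4) and H2-Ab1 (14.3 against 15.8) overlapped between the genotypes. Cd74 stood the other way, at 87.9 ± 2.4 in wildtype and 98.4 ± 2.5 in DISC1-Δ3 libraries, again without overlap. For each of the 4 genes without overlap the exact permutation p was 0.1, the smallest possible.

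Markers of other cells that can express class II were also measured. Of 8 markers of border-associated macrophages, 4 were lower and none was higher, against 19.5% and 20.4% of all tested genes. Their median log2 fold change was -0.03. The lower genes were Cbr2 (-0.64), Stab1 (-0.40), Mrc1 (-0.32) and F13a1 (-0.19). Those that did not pass the test were Ms4a7 (0.44), Lyve1 (0.20), Pf4 (0.14) and Cd163 (0.14). The summed level of the list was 939.1 to 991.2 CPM in wildtype and 784.8 to 798.7 CPM in DISC1-Δ3 libraries. Stab1 alone supplied 683.2 to 726.9 and 546.3 to 579.8 CPM of it. Relative to this list, the class II sum was 0.296 to 0.318 in wildtype and 0.266 to 0.289 in DISC1-Δ3 libraries. With RPKM in place of CPM it was 1.19 to 1.27 and 1.04 to 1.13. Neither pair of ranges overlapped (exact permutation p = 0.1 for each, the smallest possible). Of 3 tested B cell markers 2 were lower, Cd79b and Cd79a, and the sum of all 6 in the table was 33.7 to 34.3 against 21.6 to 24.5 CPM. Monocyte and neutrophil markers were lower for 5 of 7 tested genes and summed to 106.1 to 120.7 against 79.1 to 86.9 CPM. The sum of 8 dendritic cell markers went the other way, at 28.4 to 31.3 against 64.1 to 66.2 CPM, with 3 of 4 tested genes higher, or 2 without wildtype replicate 2 or 3 or without DISC1-Δ3 replicate 2. The 3 were Ccr7, which guides dendritic cells to lymph nodes, at 6.55, 5.89 and 6.58 against 19.87, 19.24 and 18.78 RPKM, Itgax (log2 fold change 1.08) and Zbtb46 (0.42). The other tested gene, Batf3, was lower at -0.66 (adjusted p = 0.0291, edgeR), a call lost without wildtype replicate 2 or 3 or without DISC1-Δ3 replicate 1 or 3, when 0 were lower. The markers of conventional dendritic cells Clec9a and Cd209a had at most 4 reads in any library, and Flt3 had 11 to 12 reads in wildtype and 0 to 6 in DISC1-Δ3 libraries. In the fit without the RPKM minimum Flt3 fell by 2.35 (adjusted p = 0.00482, edgeR). Of 8 OPC markers 6 were higher and 1 was lower, and the class II sum was 13.8% to 14.8% of the OPC marker sum in wildtype and 8.36% to 9.25% in DISC1-Δ3 libraries. Endothelial markers were higher for 3 of 6, neuron markers for 6 of 6, and astrocyte markers were lower for 5 of 6. No listed gene was at 0 in every library, and the part of these cells in the class II result was not tested.

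**Figure D4:**
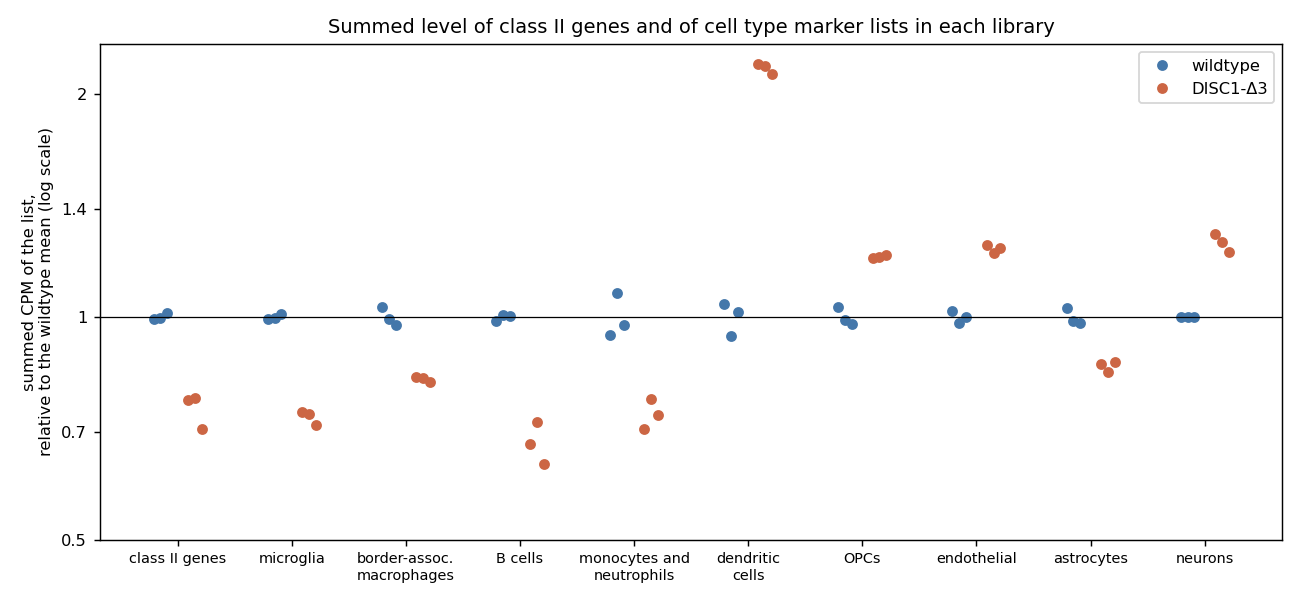
Summed CPM of the 7 class II genes and of 9 cell type marker lists in each library, relative to the wildtype mean (y axis, log scale), with 1 point for each library. The class II sum, mostly from Cd74, and the microglia sum lie at similar heights below 1 in the DISC1-Δ3 libraries. The dendritic cell marker sum, mostly from Ccr7 and Itgax, lies above 2.

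H2-Aa, H2-Ab1, H2-Eb1, H2-DMa and H2-DMb1 lie together on chromosome 17 of the GRCm38.p6 assembly, with H2-DMa at chr17:34119693-34139101, H2-DMb1 at chr17:34153191-34160229, H2-Ab1 at chr17:34263227-34269418, H2-Aa at chr17:34282744-34287823 and H2-Eb1 at chr17:34305867-34316674. From H2-Oa to H2-Ea the table held 15 genes, of which 13 were tested and 12 were lower, against 19.5% of all tested genes. The lower genes included those between H2-DMb1 and H2-Ob that are not class II genes and are named for their position. Tap1 and Tap2, the peptide transporter of the class I pathway, were at log2 fold changes of -0.88 and -0.49, and the immunoproteasome subunits Psmb8 and Psmb9 were at -0.81 and -0.84. Brd2, a bromodomain gene expressed in all cells that overlaps H2-DMa, was at 162.24 to 165.33 RPKM in wildtype and 173.06 to 182.83 RPKM in DISC1-Δ3 libraries, with a log2 fold change of 0.06 that did not pass the test (adjusted p = 0.228, edgeR).

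**Figure D5:**
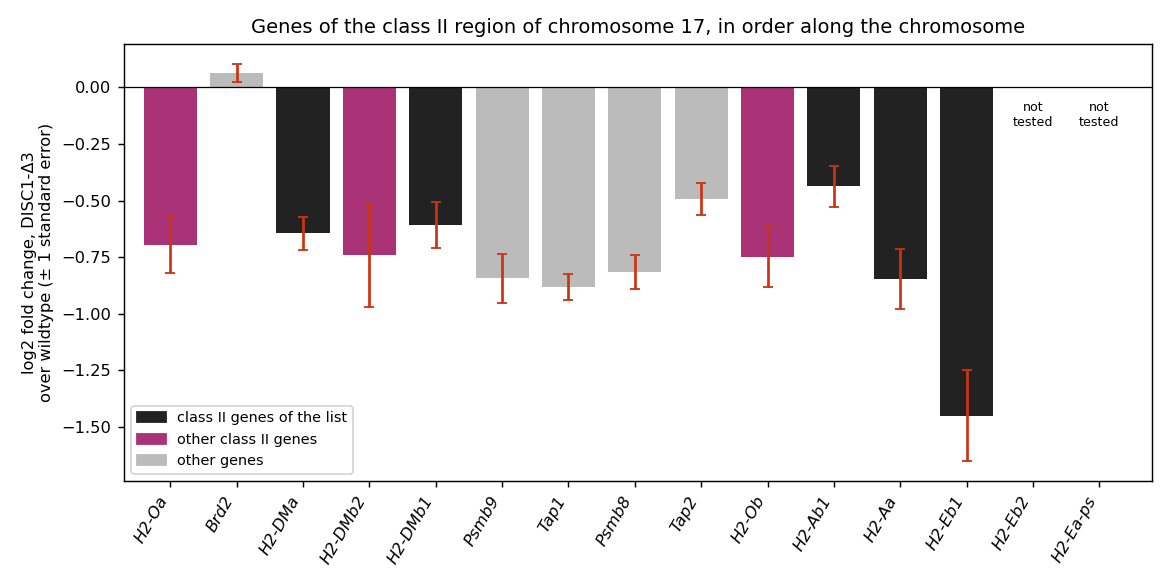
Log2 fold change of DISC1-Δ3 over wildtype (y axis, edgeR, bars ± 1 standard error) of the 15 measured genes from H2-Oa to H2-Ea, in their order along the chromosome and not to distance. All 12 tested genes other than Brd2 lie below 0, and H2-Eb1 lies lowest at -1.45.

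The genes whose profile over the 6 libraries lay closest to the mean profile of the 6 tested class II genes were C1qb, Slco2b1, Myo1g, Lgals3bp and Ptgs1. Likeness was measured as the root mean square distance of the centred log2 CPM values, which was 0.0245, 0.0293, 0.0309, 0.0310 and 0.0319 for them and 0.0945 to 0.303 for the class II genes themselves. C1qb, a chain of complement C1q and 1 of the 15 microglia markers, was at 3133, 3100 and 3065 RPKM in wildtype and 2065, 2069 and 1943 RPKM in DISC1-Δ3 libraries. The points share their libraries and depth, and the distance is a description over 6 libraries.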

How the data were processed

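RNA of immunopanned OPCs was captured by oligo(dT) and sequenced as 50-base single-end reads on a BGISEQ-500. The authors deposited 1 table with an expected count and an RPKM per gene and library. Per the submitters' processing notes it was made with Bowtie2 2.2.5 and mm10, and the counter and annotation are not given in the sources used here. Of values above 0, 90.2% were whole. The deposited expected counts were rounded. Genes with an RPKM of at least 0.5 in 3 of 6 libraries (13792 of 18211) were tested with edgeR 4.0.16 (R 4.3.3), using TMM scaling, the quasi-likelihood test and genotype as the only term, with Benjamini-Hochberg adjustment at 0.05. All fold changes are DISC1-Δ3 over wildtype. Alternatives were median-of-ratios and library-total scaling, no filter or a minimum RPKM of 1, DESeq2 1.42.0, limma 3.58.1 on log2(RPKM + 1) and log2(RPKM + 0.1), a replicate block, and leaving out each library. H2-DMb1 and H2-DMb2 were summed in an added fit, chosen after seeing the data. The 4 pooled columns of the table were not used. Gene symbols that the file shows as dates (26) were read through the gene ID. Depth was 13716619 to 16417219 reads per library. The members and lists were chosen with earlier results of these data known. Named are all members, genes named for their role, the largest changes in a list, and the 5 nearest profiles. Other listed genes enter the counts and sums only, and 1 gene is not reported here. Analysis code was tested on simulated data. Promoter windows and gene positions are from RefSeq on GRCm38.p6, the mm10 assembly.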

Additional observations from a re-analysis of the deposited data

How the results depend on the processing

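Of 575 results recomputed under an alternative setting, 534 stayed within the limits set and 41 moved. None of the 41 was a test of a class II gene, and no result changed direction. For the class II genes these limits did not require a similar size of fold change. Ciita, for example, counted as unmoved at -0.13 against -1.84. The 7 class II genes were lower at an adjusted p below 0.05 under every setting run, Ciita in fits without the RPKM minimum only. Their log2 fold changes ranged from -0.96 to -0.70 for H2-Aa, -0.50 to -0.34 for H2-Ab1, -1.58 to -0.90 for H2-Eb1, -0.46 to -0.33 for Cd74, -0.70 to -0.55 for H2-DMa, -0.72 to -0.50 for H2-DMb1 and -2.20 to -0.13 for Ciita, whose smallest value came from log2(RPKM + 1), a scale that understates low genes, with an adjusted p of 0.0461. Scaling to library totals moved the median log2 fold change of all genes from 0.0075 to 0.09 and the share of calls that were higher from 51.1% to 69.2%. DESeq2 called 4600 genes and edgeR 5498. With log2(RPKM + 1) 1774 genes were lower and with log2(RPKM + 0.1) 1763, against 2691. With replicate number as a block 5429 genes were called and 2 of the turnover ligases were lower; libraries of the same number correlated at 0.0688, 0.0240 and -0.0561 in their deviations, so the numbers were not taken to pair them, and the block changed no call of a class II gene.

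The counts of the small lists that moved by more than 1.5 times were as follows. Turnover ligases lower were 2 without the filter and 1 to 2 when a library was left out (2 without DISC1-Δ3 replicate 1). Promoter factors lower were 1 with median-of-ratios scaling and 1 without the filter (0 to 1 leaving out a library, 1 without DISC1-Δ3 replicate 3), and those higher were 3 with library totals, 3 with either limma setting and 0 with DESeq2 (0 to 2). Costimulatory ligands lower were 1, and higher 1, with library totals and with either limma setting, and lower 1 with DESeq2 (1 to 2 lower and 0 to 1 higher leaving out a library, the latter without DISC1-Δ3 replicate 3). Border-associated macrophage markers higher were 2 with library totals and with either limma setting (0 to 1, the latter without DISC1-Δ3 replicate 1). Dendritic cell markers lower were 0 with library totals, 2 without the filter and 0 with DESeq2 (0 to 1). The ratio of the class II sum to the microglia sum, DISC1-Δ3 over wildtype, was 1.03 from CPM and 1.05 from RPKM. The cause of these moves was not tested. Smaller moves also occurred: over all settings processing genes lower ranged from 4 to 6, other class II chains lower from 2 to 3, interferon path genes lower from 4 to 6, border-associated macrophage markers lower from 3 to 4, dendritic cell markers higher from 2 to 3, neuron markers higher from 4 to 6, endothelial markers higher from 2 to 3 and astrocyte markers lower from 4 to 5. Among the 7 class II genes, depth limits Ciita most, at 3 to 20 reads per library.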
